A study of Mus musculus with 8 samples.

Results

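The protein components of the cytosolic ribosome were followed in mouse heart ventricle, with attention to Rpl3 and its striated-muscle paralogue Rpl3l. The genes were chosen by name, as those called Rpl or Rps with a number and at most 1 of the letters a, x, l or y, together with Rplp0, Rplp1, Rplp2 and Rpsa. This took 81 of the 24341 genes of the table, 49 of the large subunit with its P stalk and 32 of the small subunit. In all, 8 ventricular lysates of male mice at 12 weeks of age were sequenced, all with the label Med13/13L fl/fl and all fed tamoxifen chow, 4 weeks after tamoxifen. In 4 of them the genotype was Cre Positive, and in the other 4 it was Cre Negative, so that both groups carried the floxed alleles and had the same chow. The library names of Cre-negative 1 and 2 share a tag in the labels, which do not say whether both came from 1 mouse. The study's title gives the deletion as cardiomyocyte-specific, while the lysate holds every cell type of the ventricle. The labels do not name the Cre line, and mice with Cre but without floxed alleles were not analysed here.

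Each ribosome has a large subunit, which joins amino acids, and a small subunit, which reads the mRNA. Most of their proteins are made from a single widely expressed gene in balanced amounts, and their mRNAs begin with a run of pyrimidines, the 5′ terminal oligopyrimidine tract, through which mTOR signalling and Larp1 control their translation. Rpl3 (uL3) lies next to the site of peptide bond formation. Rpl3l encodes a close relative of it that is found in heart and skeletal muscle and can take its place in the ribosome.

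Values are FPKM, fragment counts divided by transcript length and by library size. Limma was run on log2(FPKM + 1) for 11688 genes whose mean reached 1 FPKM, and a call means an adjusted p under 0.05. Every log2 change is Cre-positive minus Cre-negative. In units of 1e+06 fragments, estimated depth was 4.48 to 23.4 in Cre-positive libraries and 5.50 to 15.2 in Cre-negative libraries. By the level of Rn45s, the precursor of ribosomal RNA, 5 libraries were high and 3 were low (Cre-positive 3 and 4, Cre-negative 2), and the low ones were the deepest of their groups. Med13 averaged 8.13 ± 0.554 FPKM in Cre-positive ventricles and 12.0 ± 2.23 FPKM in Cre-negative ventricles, and Med13l averaged 2.52 ± 0.113 and 4.92 ± 0.814 FPKM in the same order (SD, n = 4 each). Both were called lower, and the call of Med13 was lost with libraries scaled to a fixed FPKM sum (log2 change -0.22, against -0.50 as deposited). That fixed sum was taken over the tested genes without the ribosomal protein members and small RNAs. The FPKM values of a library summed to 460601 to 478667 in the Cre-positive group and to 545102 to 612162 in the Cre-negative group, so the scaling of libraries bears on the log2 changes.

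The starts of the genes are shown first, because a pyrimidine tract at the start is the known mark of the family. Promoter sequences were found for 60 of the 81 members in the RefSeq table of build GRCm38.p6, and not for Rpl3. The windows run from 20 bases before the annotated start to 30 bases from it, 5′ to 3′ on the gene's strand, and capitals mark CTTTC on that strand, with 3 to 5 T bases allowed between the C bases. They are those of Rpl3l at both of its annotated starts (chr17:24727806-24727855 and chr17:24732665-24732714, both +), of Rplp2 (chr7:141447631-141447680, +) and Rpl14 (chr9:120571497-120571546, +), which were both lower in Cre-positive ventricles, and of Rpl38 (chr11:114668560-114668609, +) and Rps6 (chr4:86857338-86857387, -), which were not called.
Rpl3l start 1: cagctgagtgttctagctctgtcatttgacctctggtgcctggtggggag
Rpl3l start 2: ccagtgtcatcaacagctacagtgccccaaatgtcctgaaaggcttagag
Rplp2: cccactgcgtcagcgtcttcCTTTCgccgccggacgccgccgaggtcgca
Rpl14: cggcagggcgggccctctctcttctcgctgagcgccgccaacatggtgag
Rpl38: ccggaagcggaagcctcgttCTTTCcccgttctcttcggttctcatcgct
Rps6: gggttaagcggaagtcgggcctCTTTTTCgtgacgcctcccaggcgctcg

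The marked letters stood in the sense strand of 25 of the 60 members (41.7%), against 9.75% of the 27025 genes of the promoter table. On the antisense strand they stood in 6 of the 60 members and in 9.40% of all genes. They are a narrower pattern than a pyrimidine tract, so a member without them can still have a tract. The unmarked Rpl14 window, for example, holds an unbroken run of C and T bases across its start. Neither Rpl3l window held the marked letters on the sense strand, which says only that these letters are not in those windows. CCGGAAGT, the letters bound by ETS family factors, occurred on either strand within 250 bases before and 50 bases after the start in 12 of the 60 members and 4.31% of all genes. A MEF2 motif, named for a muscle transcription factor family, occurred in 1 of the 60 members (1.67%), against 3.70% of all genes. That member was Rpl3l, 123 bases before its second start (chr17:24732542-24732601, +), with the motif in capitals in the next line.
Rpl3l upstream of start 2: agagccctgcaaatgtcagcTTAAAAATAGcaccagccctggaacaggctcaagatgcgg

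Rpl3l, at chr17:24727829-24736149 in the mm10 loci of the table, was the member with the greatest change. Its level was 19.3, 26.8, 24.3 and 32.3 FPKM in Cre-positive libraries 1 to 4, against 155, 150, 152 and 134 FPKM in Cre-negative libraries 1 to 4. All Cre-positive libraries were far below the lowest Cre-negative library. Means were 25.7 ± 5.42 and 148 ± 9.39 FPKM in these groups (SD, n = 4 each), and Cre-positive ventricles held 0.174 times the Cre-negative level. The log2 change was -2.50 with a standard error of 0.13, a 95% interval of -2.80 to -2.21 and an adjusted p by limma of 9.02e-07. It was -2.64 among the libraries with high Rn45s (2 Cre-positive, 3 Cre-negative) and -2.38 among those with low Rn45s (2 Cre-positive, 1 Cre-negative). These values rested on an estimated 89.4 to 759 fragments in Cre-positive libraries and 762 to 2361 in Cre-negative libraries. The estimate takes an Rpl3l transcript of 1033 bases, its shortest curated coding one.

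Rpl3, at chr15:80077781-80083406, moved the other way. It had 239.6, 236.3, 261 and 274 FPKM in Cre-positive libraries, against 122, 156, 103 and 152 FPKM in Cre-negative libraries. The groups did not overlap. Means were 253 ± 17.8 and 133 ± 25.1 FPKM in the same order, a 1.89-fold higher level in Cre-positive ventricles. The log2 change was 0.93 with a standard error of 0.13, a 95% interval of 0.65 to 1.22 and an adjusted p by limma of 0.000254. Within the high and low Rn45s libraries it was 0.93 and 0.77. Besides the fit as deposited, 19 alternative settings were run. Rpl3 and Rpl3l were called in the same direction under all 19, with log2 changes of 0.82 to 1.24 for Rpl3 and -2.64 to -2.20 for Rpl3l.

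Reads of these genes can be told apart from each other over the transcripts compared, the shortest curated coding one of each gene. These are 1351 bases long for Rpl3 and 1033 for Rpl3l. They share no run of 50 bases, and the longest shared run is 17 bases. No 50-base window of this Rpl3l transcript occurs in the transcript of another gene, and longer transcripts of Rpl3l were not compared. Of the Rpl3 windows, 85.6% also occur in other genes' transcripts, most of them in the pseudogene Rpl3-ps1, which was not among the genes analysed here. The sources used here do not say how reads with several origins were counted, so the Rpl3 level is less certain than that of Rpl3l.

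**Figure D1:**
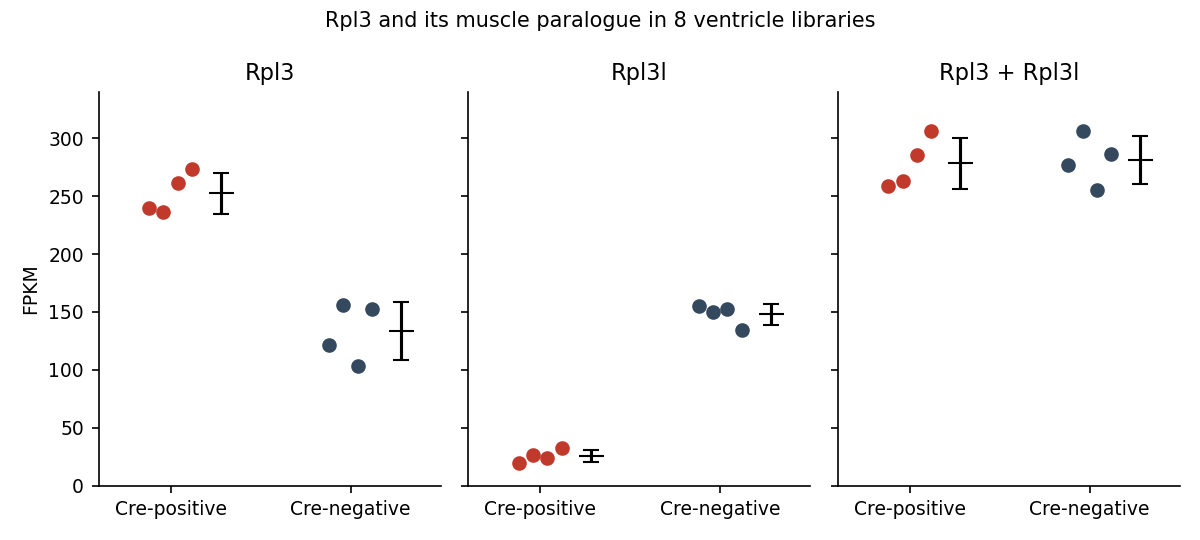
FPKM of Rpl3, Rpl3l and their sum in each library (points), with the mean and SD of 4 libraries beside them, Cre-positive in red and Cre-negative in dark blue. Rpl3l sits at 19.3 to 32.3 FPKM in Cre-positive libraries and 134 to 155 in Cre-negative libraries, Rpl3 is higher in Cre-positive libraries, and the sums of both groups overlap.

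Within a library, the ratio of the paralogues does not depend on how the library was scaled. The log2 ratio of Rpl3l to Rpl3 was -3.63, -3.14, -3.43 and -3.08 in Cre-positive libraries, against 0.35, -0.06, 0.56 and -0.18 in Cre-negative libraries. Both paralogues were thus at about the same level per length in Cre-negative ventricles, and Rpl3 exceeded Rpl3l in every Cre-positive library. The difference of the mean log2 ratios was -3.49, with an exact two-sided permutation p of 0.0286, the smallest that 4 against 4 libraries allow. After Benjamini-Hochberg adjustment over 6 paralogue pairs the exact permutation p was 0.171, above a threshold of 0.05. With this smallest p, a pair that changes alone cannot pass 0.05 over 6 pairs, however large its change. The adjusted value therefore could not decide on this ratio. Leaving out any 1 library gave differences of -3.60 to -3.36.

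Rpl3l contributed 7.46%, 10.2%, 8.51% and 10.6% of the summed FPKM of the pair in Cre-positive libraries, against 56.1%, 49.0%, 59.5% and 46.9% in Cre-negative libraries. The mean shares were 9.18% ± 1.45 and 52.9% ± 5.93 (SD, n = 4 each). The sum of both genes was 259, 263, 285 and 306 FPKM in Cre-positive libraries, against 277, 306, 256 and 286 FPKM in Cre-negative libraries. The groups overlapped, with means of 278 ± 21.8 and 281 ± 20.9 FPKM, a log2 difference of -0.015 and an exact permutation p of 0.914. This sum was examined after its values were seen, and it depends on the scaling. With libraries scaled to the fixed sum of other genes, the log2 difference was 0.29 with an exact permutation p of 0.0286. That scaling multiplied Cre-positive libraries by 1.10 to 1.13 and Cre-negative libraries by 0.866 to 0.947.

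Markers of cardiomyocytes, one of the cell types that make Rpl3l, were lower as well. Of the 6 cardiomyocyte markers 4 were called lower and none higher, with a summed level of 25245 to 26339 FPKM in Cre-positive libraries and 49958 to 52891 FPKM in Cre-negative libraries. Of 8 fibroblast markers 6 were called higher, summing to 820 to 982 FPKM in Cre-positive libraries and 525 to 615 FPKM in Cre-negative libraries. Smooth muscle and pericyte markers were called higher in 3 of 6 cases, while 3 of 7 endothelial and 4 of 7 tested macrophage markers were called lower. The other tested markers of these lists were not called. Among all tested genes 19.7% were called higher and 19.4% lower. Of 8 skeletal muscle markers only 1 was high enough to test and was called higher. Their sums were 6.76 to 10.6 FPKM in Cre-positive libraries and 1.01 to 3.11 FPKM in Cre-negative libraries, with Myh4 at the lowest value of the table in all of them. In such lysates fewer cells of a type and less RNA per cell cannot be told apart, and the part of these markers in the levels of Rpl3l and Rpl3 was not tested.

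The genes beside Rpl3l on chromosome 17 were looked at after its values were seen. Rps2, the small subunit member at chr17:24720063-24721927, averaged 723 ± 82.2 FPKM in Cre-positive ventricles and 842 ± 148 FPKM in Cre-negative ventricles, and was not called. Ndufb10, a subunit of respiratory complex I between Rps2 and Rpl3l, was lower, with 477 ± 17.5 and 1020 ± 25.5 FPKM in these groups and a log2 change of -1.10. Msrb1, a methionine sulfoxide reductase on the other side of Rpl3l, was higher, with 192 ± 13.5 and 134 ± 26.6 FPKM and a log2 change of 0.54. The small RNA Snora78, also within 20 kb, was called lower, with 25.9 ± 9.88 and 39.4 ± 3.78 FPKM and a log2 change of -0.66. Of the other genes there, Snora64 was not called, and Snhg9, Hs3st6 and Rnf151 were too low to test. The called neighbours of Rpl3l thus differed in direction.

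Apart from these paralogues, the ribosomal protein genes differed little between the groups in the values as deposited. More were called with a fixed sum, with quantile normalization and with the Rn45s level as a term in the fit. With a fixed sum the share called higher was close to that of all tested genes (45.6% of members and 45.5% of all). Of the 81 members 79 passed the filter on low values. As deposited, 2 of these were called higher (Rpl3 and Rpl34) and 4 lower (among them Rpl3l, Rplp2 and Rpl14), or 7.59%. The level of Rpl34 is uncertain, as given below. Over all 11688 tested genes 39.2% were called, 19.7% higher and 19.4% lower. At an unadjusted p under 0.05 the counts were 12 of 79 members and 5543 of all tested genes. The median log2 change was -0.06 over the members and -0.01 over all tested genes.

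The precision of the members was that of other genes. The median standard error of the log2 change was 0.11 both for members and for all tested genes. The 95% interval lay wholly between -0.5 and 0.5 for 60 of the 79 members (75.9%), against 49.4% of all tested genes. It lay between -1 and 1 for 74 members (93.7%) and for 87.1% of all tested genes. Without Rpl3 and Rpl3l, the log2 changes of the other 77 members ran from -0.39 to 0.66. The values of both groups did not overlap for 9 of the 79 members (among them Rpl3, Rpl3l, Rplp2, Rpl14, Rpl23, Rpl27a, Rpl35 and Rps29), against 38.0% of all tested genes.

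**Figure D2:**
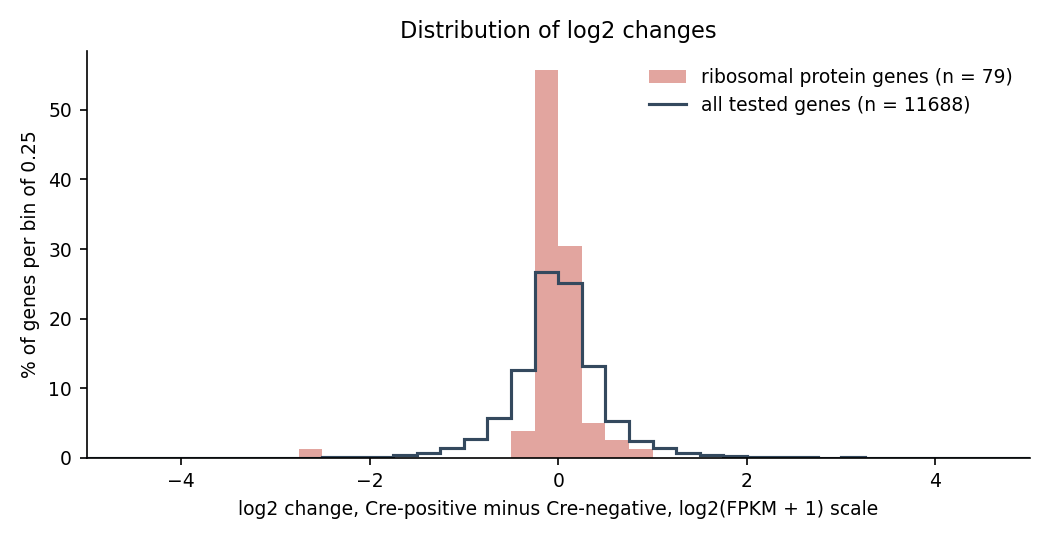
Distribution of the log2 change, Cre-positive minus Cre-negative, in bins of 0.25 as a percentage of genes, for the 79 tested ribosomal protein genes (filled) and for all 11688 tested genes (line). The members lie mostly between -0.5 and 0.5, with Rpl3l alone near -2.5.

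In the P stalk, the arm of the large subunit that recruits translation factors, Rplp2 was called lower. It had 419, 414, 446 and 493 FPKM in Cre-positive libraries, against 586, 574, 590 and 568 FPKM in Cre-negative libraries, and the groups did not overlap. The log2 change was -0.39 with a standard error of 0.08 and an adjusted p by limma of 0.00258. Its partner Rplp1 averaged 792 ± 155 FPKM in Cre-positive ventricles and 744 ± 161 FPKM in Cre-negative ventricles. Rplp0, which anchors both to the ribosome, averaged 508 ± 75.3 and 506 ± 78.3 FPKM in the same order. Neither Rplp0 nor Rplp1 was called, and their 95% intervals were -0.29 to 0.30 and -0.29 to 0.47.

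Rpl14, a protein of the large subunit, had 226, 211, 204 and 221 FPKM in Cre-positive libraries, against 271, 249, 284 and 278 FPKM in Cre-negative libraries. The log2 change was -0.33 with a standard error of 0.07 and an adjusted p by limma of 0.0051. All Cre-positive values were below all Cre-negative values. The log2 changes of Rplp2 and Rpl14 had the same sign within the high Rn45s libraries (-0.48 and -0.35) and within the low Rn45s libraries (-0.29 and -0.23). With libraries scaled to a fixed sum the log2 changes were -0.08 for Rplp2 and -0.02 for Rpl14, and with quantile normalization -0.09 and -0.13, and neither gene was called in these settings.

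The entry named Rpl34, of the large subunit, was called higher at a very low level. It had 6.92, 6.03, 8.63 and 8.0 FPKM in Cre-positive libraries, against 2.93, 4.77, 3.07 and 7.47 FPKM in Cre-negative libraries, and the groups overlapped. The log2 change was 0.66 with a standard error of 0.22 and an adjusted p by limma of 0.0393, and the gene was called in 11 of 19 alternative settings. The call was lost without any 1 of Cre-positive libraries 1, 3 and 4 and Cre-negative libraries 1 and 3, with adjusted p-values up to 0.109 by limma. Rpl34-ps1, a listed copy chosen after its values were seen, held 309 ± 47.6 FPKM in Cre-positive ventricles and 324 ± 28.1 FPKM in Cre-negative ventricles and was not called. Of the 50-base windows of Rpl34, 50.6% also occur in other genes. Both names carry the same locus, chr3:130726827-130730398, and most of the FPKM there stood under Rpl34-ps1. The sources used here do not say how reads were shared between these names, so the level and the call of Rpl34 are uncertain.

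**Figure D3:**
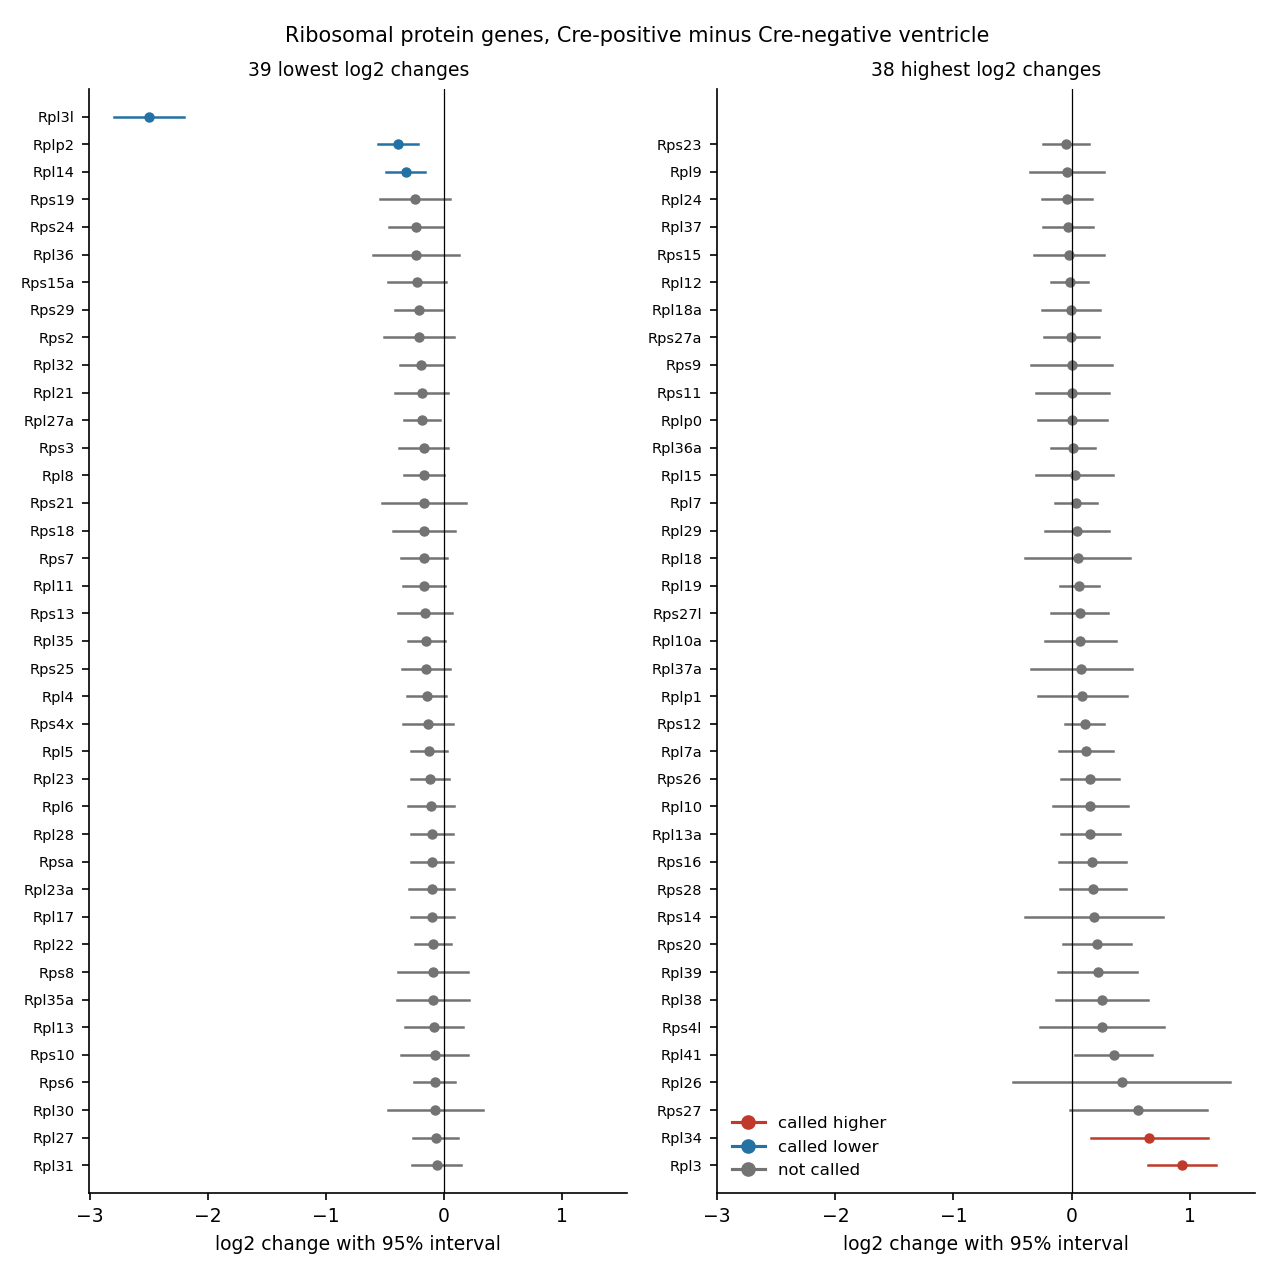
Log2 change of 77 of the 79 tested ribosomal protein genes (points) with its 95% interval (line), Cre-positive minus Cre-negative, in ascending order over both panels. Rpl3l at -2.50 and Rpl3 at 0.93 lie outside the range of -0.39 to 0.66 that holds the others, and genes called at an adjusted p under 0.05 are coloured.

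The most abundant members were not called. Rps29, a zinc-binding protein of the small subunit, averaged 1015 ± 82.9 FPKM in Cre-positive ventricles and 1178 ± 82.8 FPKM in Cre-negative ventricles, with a log2 change of -0.21 and an adjusted p by limma of 0.0823. Rpl41, the shortest of the ribosomal proteins, averaged 974 ± 119 and 768 ± 155 FPKM in these groups, with a log2 change of 0.36 and an adjusted p of 0.0772 from the same limma fit. Neither passed the threshold as deposited. Rpl41 was called higher in 5 of 19 settings, with log2 changes of 0.66 with a fixed sum, 0.70 with quantile normalization, 0.45 with the length trend removed, 0.43 without Cre-positive library 1 and 0.47 without Cre-negative library 2. Rps29 was called in 3 settings that differed in direction, higher with quantile normalization (0.21) and lower when centred on the median gene (-0.24) and with the Rn45s term (-0.25). Rpl23a, which lies at the exit of the tunnel for the new protein, averaged 825 ± 24.2 and 891 ± 85.6 FPKM in Cre-positive and Cre-negative ventricles.

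Rpsa, the small subunit protein that is also known as the laminin receptor precursor, averaged 251 ± 20.1 FPKM in Cre-positive ventricles and 270 ± 15.1 FPKM in Cre-negative ventricles. Rps27a, which is made as a fusion with ubiquitin, averaged 237 ± 31.9 and 236 ± 21.4 FPKM in these groups, and the 95% interval of its log2 change was -0.24 to 0.23. Neither was called. Counted by subunit, 2 of the 44 tested large subunit genes outside the P stalk were called higher and 2 lower, and in the small subunit none of 32 was called higher and 1 lower. Among all tested genes 19.7% were called higher and 19.4% lower. The summed FPKM of small over large subunit genes was 0.712 ± 0.018 in Cre-positive libraries and 0.736 ± 0.014 in Cre-negative libraries (SD, n = 4 each).

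Levels of the members spanned a wide range. Of the 81 members 71 had a mean of at least 100 FPKM across all 8 libraries, with a median of 332 FPKM and a highest mean of 1096 FPKM for Rps29. There were 8 members below 30 FPKM, and of these Rpl10l and Rpl39l were below 1 FPKM and were not tested. Rpl10l, known from testis, was listed at 0.01 FPKM, the lowest value of the table, in every library. Rpl39l, another paralogue known from testis, had 0.302, 0.314, 0.0576 and 0.480 FPKM in Cre-positive libraries, against 0.01, 0.01, 0.245 and 0.01 FPKM in Cre-negative libraries. Among the low members, Rps27 averaged 2.54 ± 0.725 FPKM in Cre-positive ventricles and 1.49 ± 0.869 FPKM in Cre-negative ventricles, while Rps27rt, a copy that shares 98.6% of its 50-base windows, averaged 812 ± 96.6 and 805 ± 176 FPKM. Both names carry the same locus, chr3:90212667-90213648, so the level of Rps27 is uncertain. Over the 80 members with a transcript to compare, a median of 49.9% of windows occurred in other genes, and 3 members, Rpl3l and Rpl39l among them, had none.

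The other paralogue pairs were compared in the same way as Rpl3l and Rpl3. The pair with Rps27 rests on an uncertain level, since Rps27rt at the same locus held most of the FPKM. The log2 ratio of Rps27l to Rps27 differed by -0.94 between the groups, that of Rps4l to Rps4x by 0.41, that of Rpl36al to Rpl36a by 0.18, that of Rpl7l1 to Rpl7 by -0.17 and that of Rpl22l1 to Rpl22 by -0.0062. Their exact permutation p-values were 0.171, 0.257, 0.0857, 0.171 and 0.971, and none passed 0.05 before or after adjustment. Single libraries moved these differences: without Cre-negative library 4 that of Rps27l to Rps27 was -0.37 and that of Rpl36al to Rpl36a was 0.10, without Cre-positive library 3 that of Rps4l to Rps4x was 0.25, and without Cre-positive library 1 that of Rpl7l1 to Rpl7 was -0.09. Without Cre-negative library 1 the ratio of Rpl36al to Rpl36a differed by 0.23 with an unadjusted exact permutation p of 0.0286. That of Rpl22l1 to Rpl22 ran between -0.25 and 0.15. Rpl22l1 had 14.1, 17.9, 21.2 and 34.7 FPKM in Cre-positive libraries, against 22.0, 32.4, 18.5 and 18.8 FPKM in Cre-negative libraries. The ranges of that paralogue overlapped. Rpl36al averaged 210 ± 8.44 and 185 ± 14.5 FPKM in these groups, close to the level of Rpl36a at 249 ± 15.7 and 248 ± 20.9 FPKM. It was called higher with a fixed sum (0.49), quantile normalization (0.30) and the length trend removed (0.23), and not as deposited (0.19).

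**Figure D4:**
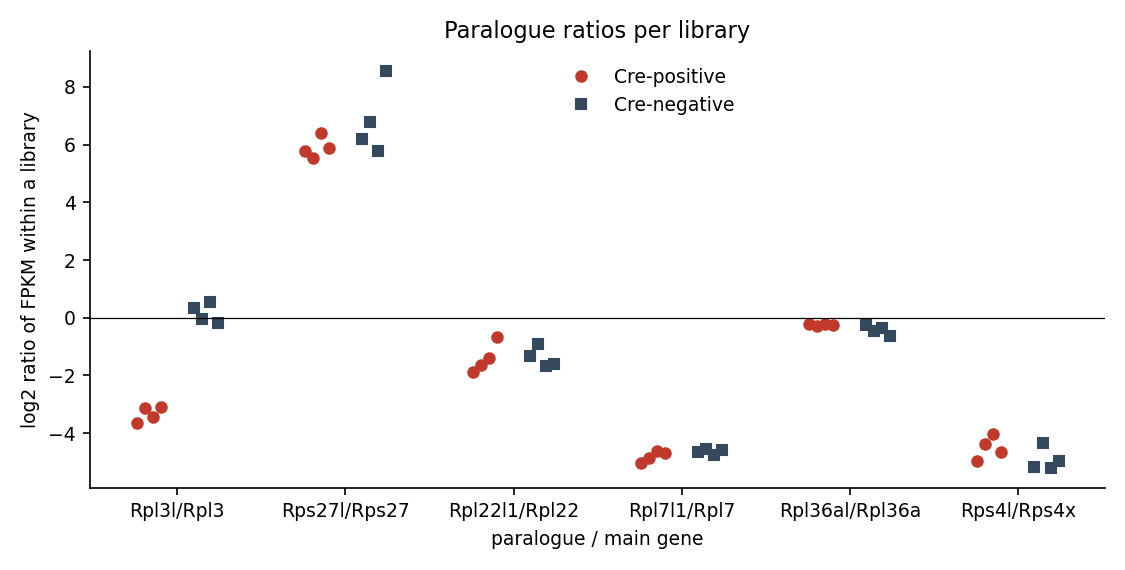
Log2 ratio of the FPKM of a paralogue to that of its main gene in each library, Cre-positive as red circles left of Cre-negative as dark squares, for the 6 pairs tested. The groups are apart for Rpl3l over Rpl3 (means -3.32 and 0.17) and overlap for the other 5 pairs. The ratio of Rps27l to Rps27 rests on an uncertain level of Rps27.

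The members' share of all FPKM was 5.69%, 5.75%, 5.95% and 6.70% in Cre-positive libraries, against 4.93%, 5.43%, 4.76% and 5.09% in Cre-negative libraries. Their summed FPKM was 26214 to 31567 in Cre-positive libraries and 25966 to 33220 in Cre-negative libraries. The shares did not overlap and the sums did. These sums were given no test. Scaled to a fixed sum, 36 of the 79 members were called higher and 1 lower, against 45.5% and 8.89% of all tested genes (54.4% in either direction), with a median log2 change of 0.24 over members and 0.25 over all tested genes. With quantile normalization 29 were called higher and 1 lower, against 39.3% of all tested genes in either direction, of which 50.8% were higher, with a median of 0.20 over members and -0.01 over all tested genes.

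With the Rn45s level of the libraries, high or low, as a term in the fit, 1 member (Rpl3) was called higher and 16 lower, against 21.3% of all tested genes in each direction and 42.6% in either, and the median log2 change over members was -0.10. Within the libraries of high Rn45s, 2 were called higher and 5 lower, against 13.9% and 13.7% of all tested genes (27.6% in either direction). The median of the members was above 0 with a fixed sum and quantile normalization and below 0 with the Rn45s term, while Rpl3 and Rpl3l kept their calls. Without Cre-negative library 1, 1 member was called higher and 4 lower, against 3812 calls among all 11680 tested genes. Without Cre-negative library 2, 3 members were called higher and 5 lower, against 4564 calls among all 11687 tested genes.

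**Figure D5:**
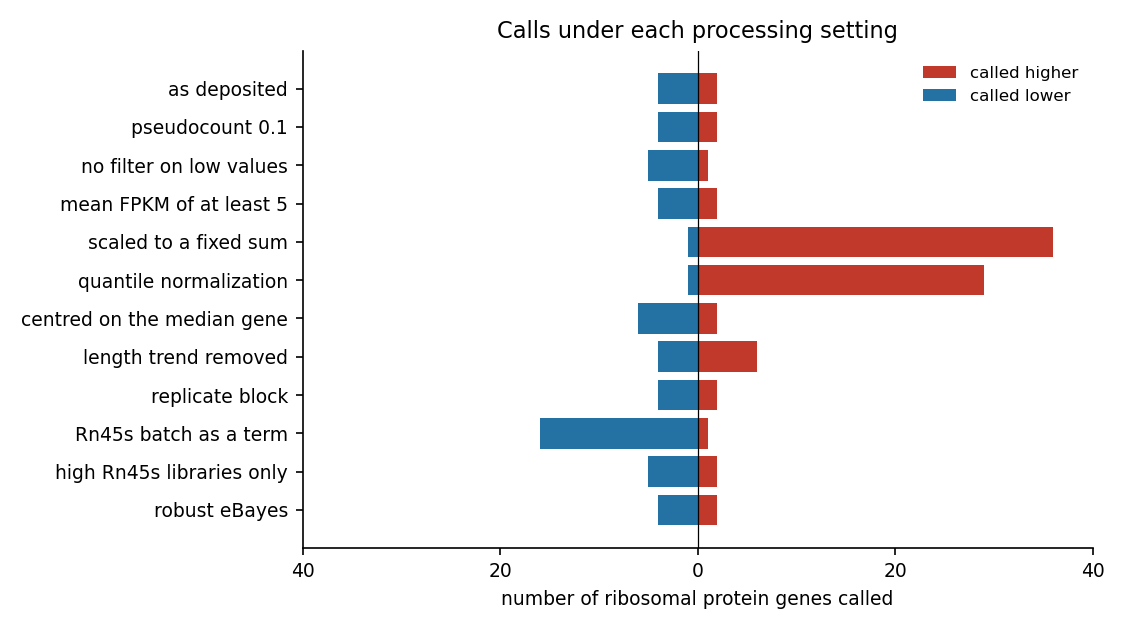
Number of ribosomal protein genes called higher (right) and lower (left) in Cre-positive ventricles under each processing setting, at a limma adjusted p under 0.05. Scaling to a fixed sum and quantile normalization give 36 and 29 genes called higher, and the Rn45s term gives 16 called lower, against 2 higher and 4 lower with the values as deposited. With a fixed sum 45.6% of members and 45.5% of all tested genes were called higher. With the Rn45s term 20.3% of members and 21.3% of all tested genes were called lower. With quantile normalization 36.7% of members and 2333 of all 11688 tested genes were called higher.

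Some ribosomal components carry names outside the pattern. By limma none of Fau, made as a fusion with a ubiquitin-like protein, the scaffold Gnb2l1 (Rack1) and Rps3a1 was called, and none had an unadjusted p under 0.05. Their log2 changes were 0.20, -0.08 and -0.22. Fau was called higher in 3 of 19 alternative settings, among them a fixed sum (0.51) and quantile normalization (0.47). Rps3a1 was called lower with the Rn45s term (-0.28).

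Genes that build ribosomes were described from a list of their own. Of 101 biogenesis genes 99 were in the table and tested. Of these 10 were called higher and 17 lower, or 27.3%, against 39.2% of all tested genes, and their median log2 change was -0.07. Bop1, which processes the RNA of the large subunit, was higher, with 20.2, 17.7, 22.8 and 20.7 FPKM in Cre-positive libraries against 8.30, 11.1, 8.83 and 10.3 FPKM in Cre-negative libraries and a log2 change of 1.01. Sbds and Eif6, which both take part in the last step before the large subunit joins the small one, were both higher. Sbds averaged 52.1 ± 6.82 FPKM in Cre-positive ventricles and 34.4 ± 4.35 FPKM in Cre-negative ventricles, and Eif6 averaged 27.4 ± 4.98 and 18.4 ± 3.82 FPKM. The call of Eif6 was lost without a filter on low values, with an adjusted p by limma of 0.0863.

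Among the biogenesis genes that fell, Rrs1, which brings the 5S particle into the large subunit, averaged 5.83 ± 0.418 FPKM in Cre-positive ventricles and 9.47 ± 0.955 FPKM in Cre-negative ventricles, a log2 change of -0.61. Lyar, a nucleolar protein, averaged 12.5 ± 1.76 and 18.5 ± 1.77 FPKM in these groups, a log2 change of -0.53 that was -0.24 and not called with a fixed sum. Gar1, of the particles that convert uridine to pseudouridine in ribosomal RNA, averaged 1.64 ± 0.218 and 2.80 ± 0.915 FPKM, and was called in 8 of 18 alternative settings. Its call was lost without any 1 of Cre-positive libraries 1, 3 and 4 and Cre-negative libraries 1 and 4, with adjusted p-values up to 0.0972 by limma. The count of calls moved with the libraries: it was 15 without Cre-positive library 3 and 16 without Cre-negative library 1. Calls among all tested genes were then 3722 of 11694 and 3812 of 11680, against 4576 of 11688 with all libraries. With libraries scaled to a fixed sum, 41 of the 99 were called higher and 1 lower, against 45.5% and 8.89% of all tested genes.

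Of 9 regulators of ribosomal protein synthesis other than Rps6, Eif4ebp1 alone was called with the values as deposited. Larp1 and Eif4ebp2 were each called in 1 other setting. This repressor of cap-dependent translation, which mTOR inactivates, had 128, 147, 144 and 143 FPKM in Cre-positive libraries, against 67.8, 70.2, 66.6 and 75.1 FPKM in Cre-negative libraries. The groups did not overlap, the log2 change was 1.00 with a standard error of 0.07 and an adjusted p by limma of 5.3e-06, and the call held in all 19 alternative settings. Its relatives Eif4ebp2 and Eif4ebp3 averaged 9.06 ± 0.459 and 1.65 ± 0.191 FPKM in Cre-positive ventricles, against 8.05 ± 0.295 and 1.83 ± 0.353 FPKM in Cre-negative ventricles. Larp1, which binds the pyrimidine tract, averaged 13.7 ± 1.25 and 16.8 ± 3.17 FPKM in these groups. Myc, Mtor, Rptor, Rps6kb1 and Rps6kb2 had log2 changes between -0.08 and 0.07. Rps6, the member that the S6 kinases phosphorylate, averaged 293 ± 21.6 and 310 ± 14.5 FPKM and was not called. These are mRNA levels, and translation and phosphorylation were not measured.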

How the data were processed

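Strand-marked total RNA libraries were made from ventricular lysates after removal of ribosomal RNA, per the labels' protocols. The authors deposited FPKM for each gene and library. Cufflinks, Bowtie2 2.2.6 and build mm10 are listed, per the submitters' processing notes. For the annotation, the use of strand and reads with several origins, no setting is given. Words in 6 cells were treated as missing. Depth was estimated from the FPKM that a single fragment gives.

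Groups came from the genotype label, and replicates are the sample numbers of the titles. The labels do not say that each came from its own animal, so p-values measure the spread between these libraries, which may be technical. Cre-negative 1 and 2, whose library names share a tag, differed by a mean absolute log2 difference of 0.215, and the other Cre-negative pairs by 0.186 to 0.314. Cre-negative 2 was nearest to Cre-negative 1, and Cre-negative 1 was nearest to Cre-negative 4 (0.186). These distances cannot tell whether 1 mouse gave both, and each was counted as a library. Genes whose mean reached 1 FPKM were compared on log2(FPKM + 1), a scale that understates changes of low genes, with limma 3.58.1 in R 4.3.3 (eBayes with a trend), adjusted by Benjamini-Hochberg over 11688 genes. For paralogue log2 ratios, the exact permutation test was two-sided and ran over 70 assignments. The fit was tested on simulated data.

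Transcripts were compared by 50-base windows, with the shortest curated coding transcript standing for each member. Promoters are from RefSeq, GRCm38.p6. Alternatives were pseudocount 0.1, no filter, a mean of at least 5 FPKM, a fixed sum, quantile normalization, centring on the median gene, removal of a length trend, a replicate block, an Rn45s term, the high Rn45s libraries alone, robust eBayes and leaving out each library. The fixed sum was that of the tested genes other than the members and small RNAs.

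Members and lists were chosen with earlier results of these data known. The named genes are Rpl3 and Rpl3l, the P stalk, Rpsa, Rps27a, the paralogue pairs, up to 6 called members in each direction, the 4 most abundant members, the 3 members farthest above and the 3 farthest below the members' median, ribosomal components outside the pattern, 3 called biogenesis genes in each direction, the regulators, and the targeted genes. Others were chosen after their values were seen. Results of some of these genes are not reported here. Of the marker lists, T and B cell and erythroid markers had 0 calls of 1 and 4 tested, and no adipocyte marker was high enough to test.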

Additional observations from a re-analysis of the deposited data

Results flagged for a closer look

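Of the 92 groups of 4 libraries examined for named genes, 6 held a library whose gap to the nearest other, as a share of the group's range, was above Dixon's 95% critical value. Chance gives about 1 in 20 such groups. Among the members, Rpsa had 281 FPKM in Cre-positive library 4 against 238 to 243 FPKM in the others of that group, and Rps29 had 892 FPKM in Cre-positive library 1 against 1048 to 1068 FPKM. Cre-negative library 2, one of the libraries with low Rn45s, stood high for Rps4l (24.2 against 11.4 to 13.3 FPKM) and for Rpl34-ps1 (367 against 309 to 313 FPKM). Eif4ebp2 had 8.38 FPKM in Cre-positive library 3 against 9.22 to 9.39 FPKM in the others. Med13l had 6.13 FPKM in Cre-negative library 3 against 4.38 to 4.62 FPKM in the others.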

How the results depend on the processing

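Without each library in turn, 5 to 8 members were called, 15 to 30 biogenesis genes, and 3722 to 4651 of all tested genes. The summed FPKM of Rpl3 and Rpl3l then differed by -0.06 to 0.03 on the log2 scale. Members called numbered 37 with a fixed sum, 30 with quantile normalization, 10 with the length trend removed, 17 with the Rn45s term and, in an alternative chosen after seeing the data, 3 of the 38 tested members with under 50% of windows shared. Of all tested genes, 54.4% were called with a fixed sum, 39.3% with quantile normalization and 42.6% with the Rn45s term. With the length trend removed 4797 of 11638 genes were called, and as deposited 39.2%. Calls in the biogenesis list numbered 15 without a filter, 42 with a fixed sum and 15 in the high Rn45s libraries. Among all genes 3920 of 24341 were called without a filter and 3222 of 11672 in the high Rn45s libraries. Of all calls, 50.4% were higher as deposited and 83.7% with a fixed sum. With a fixed sum the log2 change turned to 0.29 for the sum of Rpl3 and Rpl3l and, past the limma threshold, to 0.20 for Rpsa, 0.30 for Rps27a, 0.21 for Rpl22, 0.20 for Rpl23a and 0.23 for Rps6; with quantile normalization it turned to 0.21 for Rps29 and 0.31 for Rpl23a. The cause was not tested. With the sample number as a replicate block, 2 members were called higher and 4 lower, as without it, and 3862 of all genes. Libraries with the same number did not deviate together (correlations of deviations from -0.16 to -0.08), so the numbers pair nothing. Depth limits the low members: the 2 under 1 FPKM were not tested.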
